A study of Gallus gallus with 8 samples.

Results

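Genes named for cell division were followed in the breast muscle of broiler chickens with tougher and with more tender meat. Members were taken by symbol from the authors' deposited table: the CDC, CDCA, CCN (cyclins A, B, D, E and F), CDK, MCM, CENP, NCAP, SMC, BUB, AURK, PLK, CKAP, TOP2A, MKI67 and KIF names, leaving out CDC42 and its partners. This gave 79 of the 17108 genes in the count table, and all 79 passed the filter on low counts in every bird. The filter kept all 7619 genes with a symbol and a fold change in the authors' deposited table. That the members were kept is thus no result about them. The birds compared were 4 females with high and 4 with low shear force, all of the commercial strain Hubbard Flex and 6 weeks old. Shear force, a measure of toughness, is read from a blade passing through the meat, and the study set the breast muscle transcriptomes of these groups side by side. RNA came from pectoralis muscle as a whole, so it holds fibres and all other cells of the tissue, and no treatment or allele separates the groups. Each library is called a bird here by its group and number. The labels do not state that every library is a separate animal, and where it is not, the p-values measure only the spread between these libraries.

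A cell copies its DNA in S phase and shares it out in mitosis. Before S phase, MCM proteins are loaded on the DNA as a ring-shaped helicase, and cyclins with their kinases decide when copying and mitosis begin. In mitosis, condensin packs the chromosomes, the kinetochore ties them to the spindle, kinesin motors move and bundle microtubules, and the anaphase-promoting complex ends the process by marking proteins for destruction. Muscle fibres do not divide. In a growing bird, new nuclei reach the fibre from satellite cells, which divide and fuse, while fibroblasts, vessel cells and leukocytes divide on their own. Many genes that carry a division name also work in cells that never divide, among them most kinesins, which carry cargo along microtubules, and the CDKs of transcription.

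The libraries held between 5564905 and 7322205 expected counts, which are estimates and can be fractional. Summed over 10 fibre genes such as ACTA1 and TNNC2, fibre markers took 137900 to 167600 CPM (counts scaled to a common library size) in high and 127900 to 178800 CPM in low shear force birds. On the first principal component of log2 CPM, which held 32.4% of the variance, low shear force birds 1 and 3 stood at 39.0 and 43.9, apart from the other 6 birds at -24.4 to -3.27. By the edgeR quasi-likelihood test with Benjamini-Hochberg adjustment, 0.0% of 10136 genes had an adjusted p under 0.05. DESeq2 called 123 genes, 1.21% of those tested, and limma-voom 0.0%.

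None of the 79 cell division genes was called by edgeR, DESeq2 or limma-voom. The smallest edgeR adjusted p among them was 0.269, for CDCA8, which ranked 299th of all genes by unadjusted p. An unadjusted p under 0.05 was found for 13 members (16.5%) against 12.8% of all genes. Of these, 9 were higher in high shear force birds, where the background was 7.92%, and 4 were lower, where it was 4.91%. Leaving out single birds moved this count, and the share of all genes moved as well. With low bird 1 left out it was 6 (7.59% of members, against 7.75% of all genes). With low bird 3 left out it was 8 (10.1% against 8.0%), and with low bird 4 left out 21 (26.6% against 18.6%). With high bird 2 left out it was 7 (8.86% against 8.89%), and with high bird 4 left out it was 8 (10.1% against 8.48%). Without low shear force birds 1 and 3 together it was 3 (3.80% of members), against 7.51% of all genes.

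By role, the counts were as follows. Among the 22 genes of replication, mitosis and mitotic motors, 17 (77.3%) lay above 0 in log2 fold change of high over low shear force, and their median was 0.295. Across all genes 50.8% were positive, with a median of 0.0064. Of the other 57 members, 26 (45.6%) were positive, with a median of -0.033. These 57 also hold division genes, among them CDC2, the cyclins, CDC20 and the condensin subunits, so they are not a group outside division. The 22 include the CENPF row of chromosome 17, whose name is uncertain (below). With 1 bird left out the median of the 22 ran from 0.14, when that was low bird 2, to 0.36, when it was low bird 4, and 15 to 18 of them were positive. Without low shear force birds 1 and 3, 16 of the 22 were positive with a median of 0.30, against 51.3% of all genes. Of the other 57 members 33 were then positive, and their median turned to 0.053. With all 8 birds an unadjusted p under 0.05 was found for 7 of the 22 (31.8%), against 12.8% of all genes. Without low birds 1 and 3 it was found for 0 of the 22, against 7.51% of all genes. Whether the 22 differ from the other 57 was not tested, since the roles were assigned with earlier results of these birds known.

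**Figure D1:**
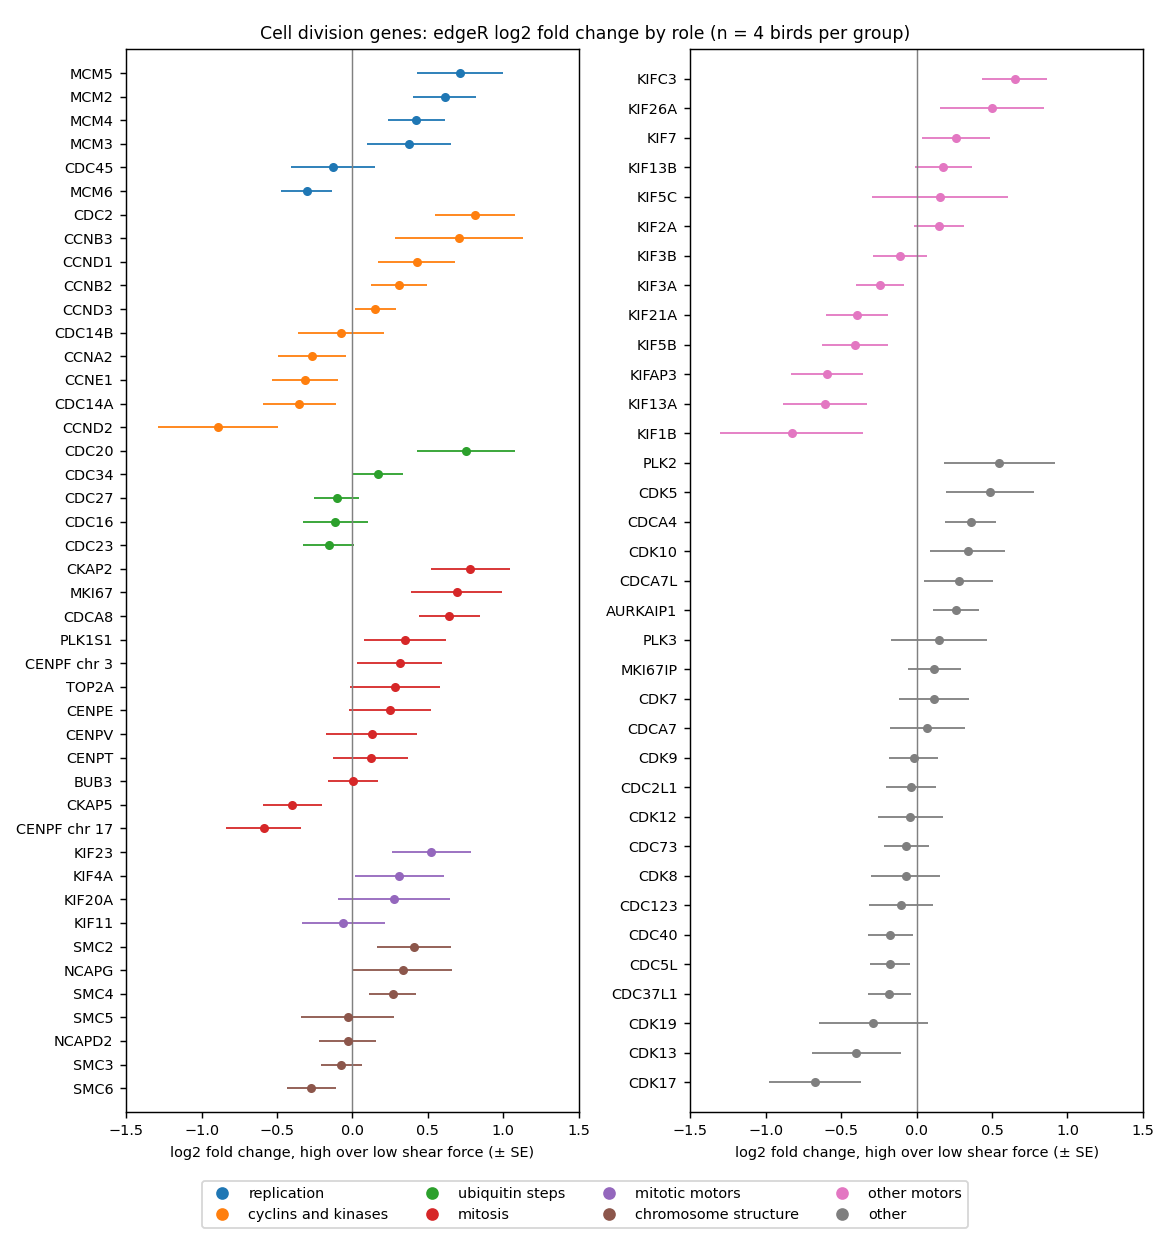
Each point is the edgeR log2 fold change of high over low shear force for 1 member, with its SE as the bar, for 4 birds per group, and colours mark the role. In the replication, mitosis and mitotic motor groups 17 of 22 points lie right of 0, while the other motors spread from 0.65 for KIFC3 to -0.83 for KIF1B.

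The replication genes were MCM2 to MCM6, which are subunits of the helicase ring, and CDC45, which joins the ring when it starts to unwind DNA. MCM7, the remaining subunit of the ring, is not analysed here. MCM2 had 11.2, 15.3, 14.05 and 16.7 CPM in high shear force birds 1 to 4, against 10.6, 8.07, 7.59 and 11.3 CPM in low shear force birds 1 to 4. The groups overlapped only by the lowest high bird and the highest low bird. MCM2 averaged 14.3 ± 2.35 CPM in high and 9.38 ± 1.82 CPM in low shear force birds (SD, n = 4 each), a log2 fold change of 0.61 ± 0.21 (SE) with an adjusted p of 0.311. MCM5 had 5.11, 6.81, 10.03 and 9.96 CPM in high and 3.995, 5.27, 3.99 and 6.39 CPM in low shear force birds. High shear force bird 1 lay among the low birds. The log2 fold change of MCM5 was 0.71 ± 0.28 (SE), with an adjusted p of 0.350. MCM4 averaged 15.3 ± 2.13 CPM in high and 11.4 ± 1.77 CPM in low shear force birds (SD, n = 4 each), and MCM3 6.10 ± 1.66 CPM in high and 4.69 ± 0.997 CPM in low shear force birds (SD, n = 4 each). Their log2 fold changes were 0.42 ± 0.19 and 0.38 ± 0.28 (SE).

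MCM6 ran against its partners. It had 17.2, 21.7, 19.4 and 23.4 CPM in high shear force birds, against 27.7, 19.8, 25.6 and 27.9 CPM in low shear force birds. Only low bird 2 lay inside the high group, and the others lay above it. The log2 fold change was -0.30 ± 0.17 (SE), with an adjusted p of 0.456. Taken within each bird, log2 CPM of MCM6 minus the mean of MCM2 to MCM5 was 1.07, 1.16, 0.77 and 1.03 in high shear force birds, against 1.91, 1.57, 1.91 and 1.83 in low shear force birds, without overlap. This difference between genes was chosen after its values were seen and carries no test. The deposited transcript table splits MCM6 into a pair of transcripts. MCM6-202 had 7.18, 9.06, 10.6 and 9.68 CPM in high shear force birds, against 17.98, 10.3, 16.5 and 11.6 CPM in low shear force birds. Its log2 fold change was -0.63 ± 0.23 (SE, adjusted p = 0.352). MCM6-201 averaged 11.4 ± 2.26 CPM in high and 11.1 ± 3.42 CPM in low shear force birds (SD, n = 4 each), a log2 fold change of 0.031 ± 0.25 (SE). The lower mean of MCM6 in high shear force birds thus stood in MCM6-202, where low birds 1 and 3 were the highest. In that transcript low bird 2 lay inside the high group and low bird 4 a little above it. In MCM6-201 low bird 4 was the highest of all birds, at 16.3 CPM. The sources used here do not say how reads were divided between the transcripts. CDC45 stood at 4.38 ± 1.19 CPM in high and 4.81 ± 0.881 CPM in low shear force birds (SD, n = 4 each).

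**Figure D2:**
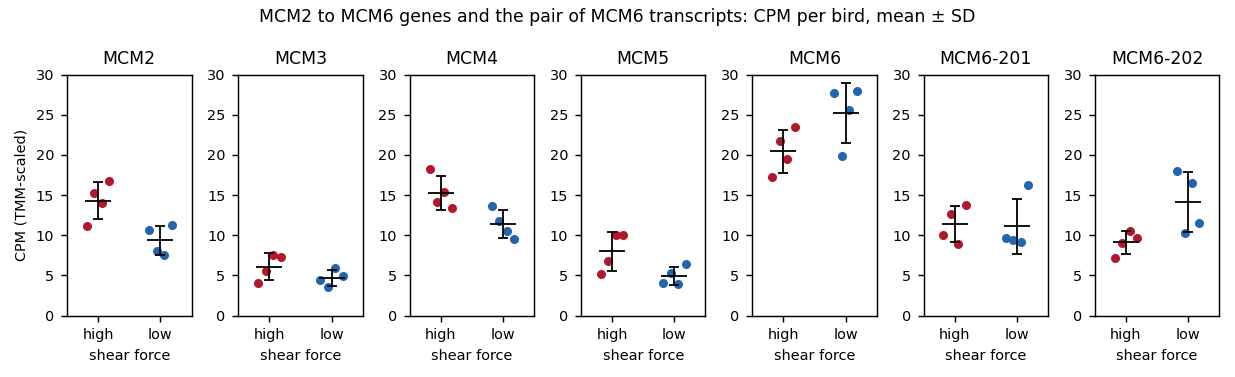
CPM of MCM2 to MCM6 and of the MCM6 transcripts in each bird, high shear force on the left of each panel, with mean and SD (n = 4). MCM2 to MCM5 have the higher mean in high shear force birds, while MCM6 averages 20.5 CPM in high and 25.2 CPM in low shear force birds.

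The cyclins and the kinases and phosphatases of the cycle went both ways, 5 of 10 positive with a median of 0.037, which ran from -0.051 to 0.11 with 1 bird left out. CDC2, the kinase also called CDK1 that drives cells into mitosis, had the largest positive fold change of all members. It had 11.5, 14.9, 16.9 and 15.8 CPM in high shear force birds, against 6.76, 6.84, 6.56 and 13.6 CPM in low shear force birds. Of the low group, bird 4 lay inside the high group, and the other low birds lay close together. CDC2 averaged 14.8 ± 2.35 CPM in high and 8.44 ± 3.45 CPM in low shear force birds (SD, n = 4 each), a log2 fold change of 0.81 ± 0.26 (SE) with an adjusted p of 0.290. It was 1.13 without low shear force bird 4 and 0.497 without low shear force birds 1 and 3. CCNB2, the cyclin B partner of that kinase, had 15.2, 17.5, 14.8 and 18.5 CPM in high and 12.1, 12.5, 11.6 and 17.1 CPM in low shear force birds. As for CDC2, the single low bird within the high group was bird 4. The RefSeq annotation (GRCg7b) gives CCNB2 as another name of the gene it calls CCNB1. CCNB3, a further B-type cyclin, averaged 5.81 ± 2.296 CPM in high and 3.61 ± 2.15 CPM in low shear force birds (SD, n = 4 each), with overlap.

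The D cyclins, which carry growth signals into G1, differed from one another. CCND1 was nearly the same in the high shear force birds, at 5.91, 5.98, 6.15 and 6.01 CPM, against 3.84, 3.16, 6.04 and 4.71 CPM in low shear force birds. The log2 fold change was 0.43 ± 0.25 (SE), with an adjusted p of 0.491. CCND2 had the largest negative value of all members, -0.89 ± 0.397 (SE), with an adjusted p of 0.375. It had 2.395, 5.01, 3.51 and 2.78 CPM in high shear force birds, against 10.1, 3.86, 8.23 and 3.19 CPM in low shear force birds. Among the low birds, 1 and 3 alone were high, and without them the log2 fold change was -0.072. CCND3 stood at 36.8 ± 3.35 CPM in high and 33.2 ± 2.61 CPM in low shear force birds (SD, n = 4 each). CCNA2, the cyclin of S phase and G2, averaged 6.80 ± 0.777 CPM in high and 8.19 ± 1.68 CPM in low shear force birds, and CCNE1, the cyclin of S phase entry, 15.1 ± 1.41 CPM in high and 18.8 ± 5.85 CPM in low shear force birds (SD, n = 4 each). CDC14A, a phosphatase that counters CDKs, had 3.35 to 4.64 CPM in high and 4.87 to 5.53 CPM in low shear force birds, without overlap, at an adjusted p of 0.546. CDC14B stood at 6.31 ± 1.54 CPM in high and 6.61 ± 2.15 CPM in low shear force birds (SD, n = 4 each).

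**Figure D3:**
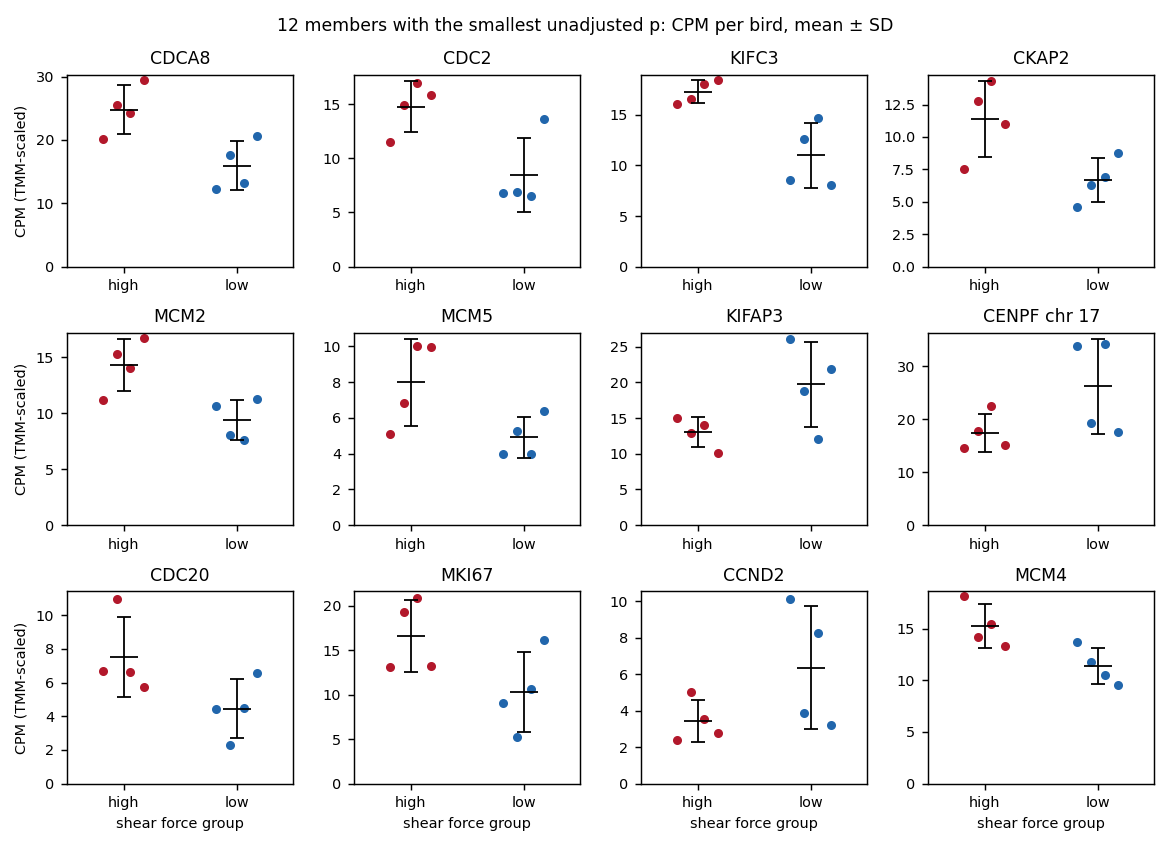
CPM per bird for the 12 members with the smallest unadjusted p, high shear force on the left of each panel, with mean and SD (n = 4) on linear axes from 0. Among these, KIFC3 alone has no overlap between groups, at 16.1 to 18.5 CPM in high and 8.07 to 14.7 CPM in low shear force birds, and CCND2 and the CENPF row of chromosome 17 have their high values in low birds 1 and 3.

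Of the ubiquitin steps, CDC20 stood apart from the core subunits of the complex it activates. CDC20, the activator of the anaphase-promoting complex in mitosis, had 6.71, 10.98, 6.65 and 5.71 CPM in high shear force birds, against 4.46, 2.28, 4.50 and 6.55 CPM in low shear force birds. Bird 2 of the low group was the lowest of all, and low bird 4 lay inside the high group. CDC20 had a log2 fold change of 0.75 ± 0.33 (SE), with an adjusted p of 0.369. High bird 2 was the highest of all, and without it the value was 0.51. Without low bird 4 the value was 0.98. CDC16, CDC23 and CDC27, subunits of the complex that are also made in resting cells, had log2 fold changes of -0.12 ± 0.22, -0.16 ± 0.17 and -0.11 ± 0.15 (SE). CDC34, a ubiquitin-conjugating enzyme of the SCF ligases, stood at 39.0 ± 6.34 CPM in high and 34.7 ± 5.05 CPM in low shear force birds (SD, n = 4 each).

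Among 12 mitosis genes 10 were positive, and the median log2 fold change was 0.27, or 0.11 without low bird 2. CDCA8, which encodes borealin of the chromosomal passenger complex, had 20.1, 25.4, 24.2 and 29.5 CPM in high shear force birds, against 12.3, 17.5, 13.2 and 20.7 CPM in low shear force birds. The groups met at high shear force bird 1 and low shear force bird 4. CDCA8 averaged 24.8 ± 3.84 CPM in high and 15.9 ± 3.89 CPM in low shear force birds (SD, n = 4 each), a log2 fold change of 0.64 ± 0.20 (SE). It lies on an unplaced contig in the authors' deposited table. CKAP2, a spindle protein, had 7.504, 12.8, 14.3 and 10.99 CPM in high and 4.61, 6.32, 6.94 and 8.74 CPM in low shear force birds. Only high shear force bird 1 lay below the highest low bird. For CKAP2 the log2 fold change was 0.78 ± 0.26 (SE), with an adjusted p of 0.297.

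MKI67, the Ki-67 protein used as a marker of dividing cells, had 13.1, 19.3, 20.8 and 13.2 CPM in high shear force birds, against 9.07, 5.27, 10.7 and 16.1 CPM in low shear force birds. Here low bird 2 was lowest and low shear force bird 4 lay above a pair of the high birds. For MKI67 it was 0.69 ± 0.30 (SE), with an adjusted p of 0.371. TOP2A, the topoisomerase that untangles chromosomes, had 7.98, 11.7, 14.7 and 8.205 CPM in high and 10.1, 4.56, 8.74 and 11.6 CPM in low shear force birds, with overlap and a log2 fold change of 0.28 ± 0.30 (SE). The value of TOP2A was 0.045 without low bird 2, 0.078 without high bird 3 and 0.43 without low bird 4. CENPE, a kinetochore motor, stood at 5.28 ± 0.988 CPM in high and 4.43 ± 1.12 CPM in low shear force birds, and CENPT, an inner kinetochore protein, at 5.26 ± 1.06 CPM in high and 4.84 ± 0.626 CPM in low shear force birds (SD, n = 4 each). PLK1S1, a centrosome protein that RefSeq calls KIZ, had a log2 fold change of 0.35 ± 0.27, CENPV of 0.13 ± 0.30 and BUB3, of the spindle checkpoint, of 0.0057 ± 0.17 (SE).

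Both mitosis members with a negative value were highest in low shear force birds 1 and 3. CKAP5, which lengthens microtubules and is also made in resting cells, had 31.3, 33.2, 37.5 and 28.4 CPM in high shear force birds, against 52.4, 30.5, 53.7 and 35.1 CPM in low shear force birds. The symbol CENPF belongs to 2 Ensembl genes (coordinates of galGal4). The row on chromosome 3 (20356020 to 20391564) stood at 6.40 ± 1.79 CPM in high and 5.16 ± 1.21 CPM in low shear force birds (SD, n = 4 each), a log2 fold change of 0.31 ± 0.28 (SE). The row on chromosome 17 (8344384 to 8375229) had 14.5, 17.7, 22.5 and 15.1 CPM in high shear force birds, against 33.8, 19.3, 34.1 and 17.6 CPM in low shear force birds, with a log2 fold change of -0.59 ± 0.25 (SE) and an adjusted p of 0.357. Without low birds 1 and 3 this value was -0.12. In the authors' deposited table this row lies between CUTA and RAB14. RefSeq (GRCg7b) has CENPF on chromosome 3 beside PTPN14 and near SMYD2, and on chromosome 17 it places CNTRL, the gene of the centrosome protein centriolin, next to RAB14. The neighbours of the chromosome 3 row thus match CENPF, and the chromosome 17 row carries the name without that match.

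The mitotic motors were KIF4A and KIF20A, KIF23, which bundles microtubules between separating chromosomes, and KIF11, which pushes spindle poles apart. KIF23 had 5.75, 6.395, 6.899 and 7.77 CPM in high shear force birds, against 5.07, 2.81, 5.14 and 5.55 CPM in low shear force birds, without overlap. Its log2 fold change was 0.52 ± 0.26 (SE), with an adjusted p of 0.413. KIF4A averaged 5.99 ± 1.295 CPM in high and 4.84 ± 1.71 CPM in low shear force birds, and KIF20A 7.601 ± 1.99 CPM in high and 6.29 ± 3.29 CPM in low shear force birds (SD, n = 4 each). KIF11 overlapped between groups, at 5.27, 9.59, 10.9 and 9.09 CPM in high and 12.1, 5.97, 9.26 and 9.07 CPM in low shear force birds, and a log2 fold change of -0.062 ± 0.28 (SE). Low shear force bird 2 was the lowest of the 8 birds in KIF4A, KIF20A and KIF23, and without it the median of the 4 motors was 0.057 in place of 0.29. Without low bird 4 that median was 0.57, so it moved widely in both directions with single low birds.

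In all, 4 members had no overlap between groups (5.06%), a share near the 6.18% of all genes. These were KIF23 and KIFC3, higher in high shear force birds, and CDC14A and SMC6, lower. In KIF23 the groups were parted narrowly, by high bird 1 at 5.75 CPM and low bird 4 at 5.55 CPM. In CDC14A the gap was also narrow, between high bird 3 at 4.64 CPM and low bird 4 at 4.87 CPM. SMC6, of the complex that resolves joined chromosomes during repair, had 18.04, 20.99, 19.6 and 21.1 CPM in high and 22.4, 21.9, 30.1 and 21.7 CPM in low shear force birds. The gap between the groups was under 1 CPM, and low shear force bird 3 stood above the rest. SMC2 and SMC4, the ATPases of condensin, stood at 13.4 ± 1.53 and 23.6 ± 1.44 CPM in high and 10.1 ± 3.49 and 19.6 ± 2.55 CPM in low shear force birds (SD, n = 4 each). Their log2 fold changes were 0.41 ± 0.24 and 0.27 ± 0.15 (SE). The condensin subunits NCAPG and NCAPD2 had 0.33 ± 0.33 and -0.033 ± 0.19 (SE). NCAPG, with the lowest single count of any member (11, in low bird 2), stood at 0.070 without low bird 2, 0.208 without high bird 3 and 0.56 without low bird 4. SMC3, of the cohesin ring that holds sister chromosomes, had -0.075 ± 0.14, and SMC5 -0.032 ± 0.31 (SE).

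The 13 other motors, which mostly carry cargo in cells that do not divide, were positive in 6 cases, with a median of -0.11. KIFC3, a minus-end directed kinesin, had 16.1, 16.5, 18.1 and 18.5 CPM in high shear force birds, against 8.605, 12.6, 14.7 and 8.07 CPM in low shear force birds. The high birds lay close together and all above the low birds. KIFC3 averaged 17.3 ± 1.14 CPM in high and 10.99 ± 3.18 CPM in low shear force birds (SD, n = 4 each), a log2 fold change of 0.65 ± 0.22 (SE) with an adjusted p of 0.296. KIFAP3, the adaptor of the KIF3A and KIF3B motor, had 15.01, 12.9, 14.05 and 10.1 CPM in high and 26.1, 18.8, 12.1 and 21.8 CPM in low shear force birds. Only low bird 3 lay inside the high group. Its log2 fold change was -0.59 ± 0.24 (SE, adjusted p = 0.352), while its motor partners KIF3A and KIF3B stood at -0.24 ± 0.16 and -0.11 ± 0.18 (SE).

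KIF1B, a carrier of mitochondria and synaptic vesicle precursors, spread most between birds. It had 56.7, 76.9, 87.9 and 49.2 CPM in high shear force birds, against 179.6, 44.7, 206 and 49.4 CPM in low shear force birds. Birds 1 and 3 of the low group stood far above every other bird, while the other low birds lay near the bottom of the range. The log2 fold change of -0.83 ± 0.47 (SE) turned to 0.49 ± 0.23 (SE) without these 2 birds. KIF5B, the heavy chain of conventional kinesin, had 84.6, 89.4, 86.8 and 70.3 CPM in high and 123.7, 83.7, 156.9 and 75.8 CPM in low shear force birds, and turned likewise, to 0.020 in place of -0.41. KIF13A averaged 10.1 ± 3.001 CPM in high and 15.4 ± 5.599 CPM in low shear force birds, and KIF21A 37.7 ± 4.67 CPM in high and 49.6 ± 13.5 CPM in low shear force birds (SD, n = 4 each). The remaining motors, KIF2A, KIF5C, KIF7, KIF13B and KIF26A, had log2 fold changes between 0.15 and 0.499.

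The 22 members of other processes were positive in 10 cases with a median of -0.028, and 1 had an unadjusted p under 0.05. This was CDK17, a kinase of the PCTAIRE family, at 11.3, 10.4, 11.5 and 7.91 CPM in high and 23.8, 11.9, 21.3 and 8.401 CPM in low shear force birds. Again low shear force birds 1 and 3 alone were high, and without them its log2 fold change was -0.014 in place of -0.67. The transcription kinases CDK7, CDK8, CDK9, CDK12 and CDK13 stood between -0.40 and 0.12. CDC5L and CDC40, splicing factors, stood at -0.17 ± 0.13 and -0.17 ± 0.15, and CDC73, of the PAF1 complex, at -0.067 ± 0.15 (SE). PLK2, a stress-induced polo-like kinase, had the largest positive value of this group, 0.55 ± 0.37 (SE), from 8.62, 10.98, 28.98 and 21.1 CPM in high and 8.76, 13.9, 9.13 and 16.3 CPM in low shear force birds. High shear force birds 3 and 4 alone lay above the low group, and without high shear force bird 3 the log2 fold change was 0.17. The other members of this group, with roles outside the division machinery or not described here, stood between -0.29 for CDK19 and 0.49 for CDK5. They were CDK10 (0.34), CDCA4 (0.36), CDCA7 (0.071), CDCA7L (0.28), AURKAIP1 (0.26), PLK3 (0.15), MKI67IP (0.12), CDC123 (-0.11), CDC37L1 (-0.18) and CDC2L1 (-0.038), given as log2 fold changes.

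**Figure D4:**
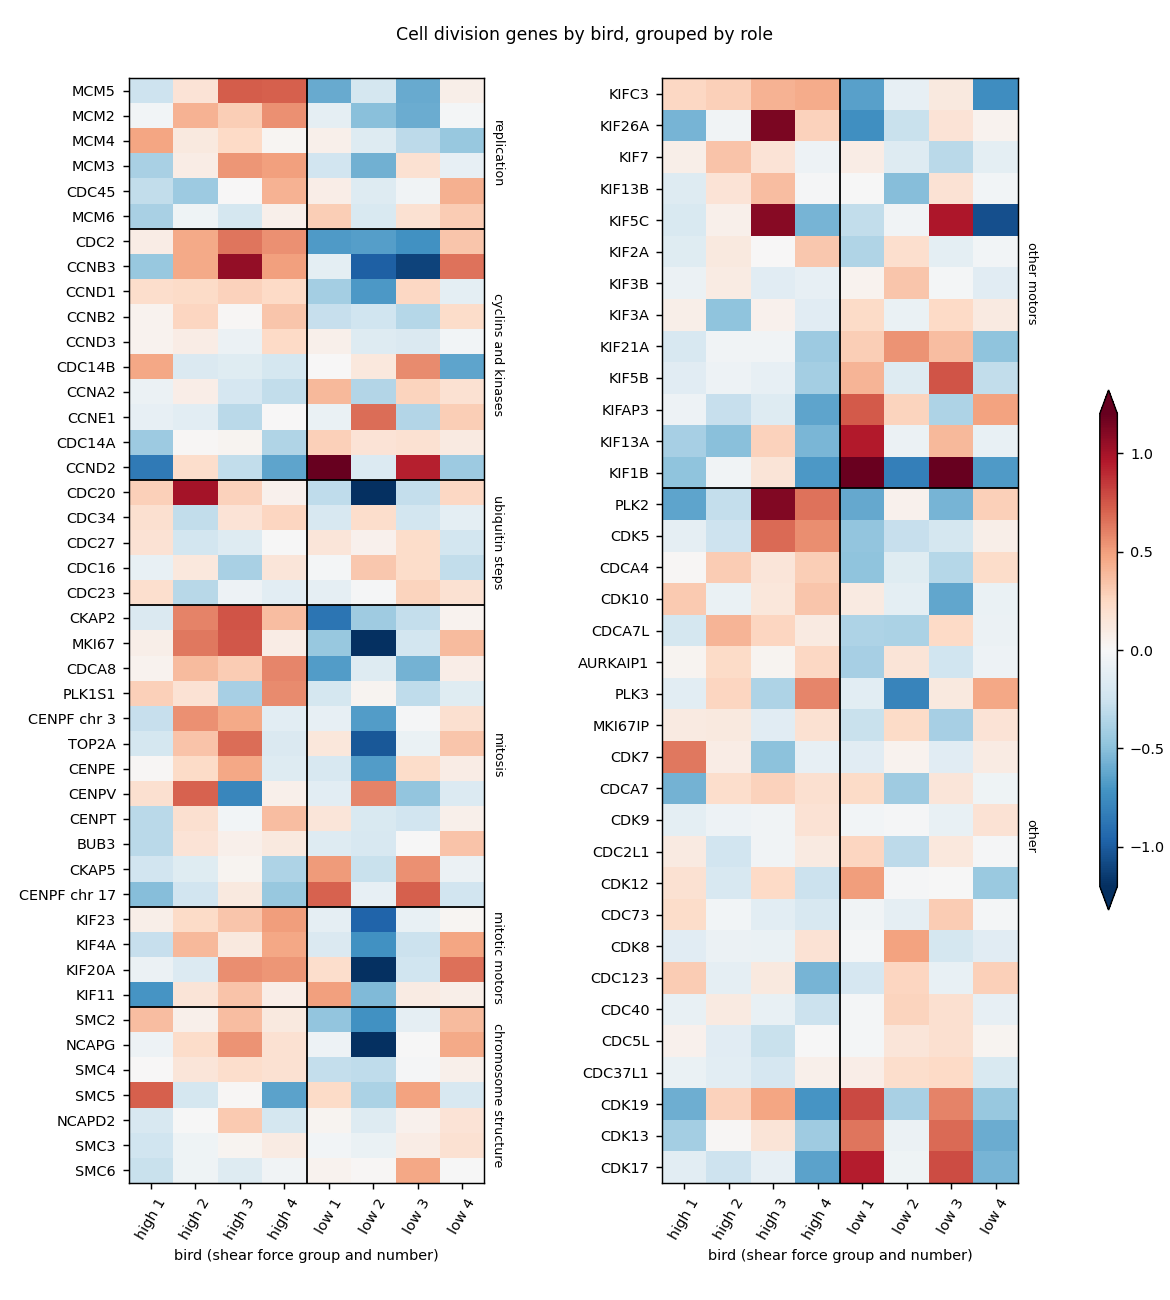
Each cell is the log2 CPM of 1 member in 1 bird minus that gene's mean over 8 birds, with high shear force birds left of the line and the strongest colours saturated. Low shear force bird 2 is blue through most mitotic motors and MKI67, TOP2A and CDC20, and low shear force birds 1 and 3 are red in CCND2, the CENPF row of chromosome 17, KIF1B, KIF5B, KIF13A, CDK13, CDK17 and CDK19.

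Bird by bird, low shear force bird 2 was the lowest of the 8 birds in 8 of the 22 genes of replication, mitosis and mitotic motors (36.4%) and the highest in 0, while it was the lowest in 17.5% of all genes. High shear force bird 1 came next, as the lowest in 5 of the 22 (22.7%). The highest bird among the 22 was high shear force bird 3 in 6, high shear force bird 4 in 5 and low shear force bird 4 in 5. For these birds the share of all genes is not given here. In 14 members (17.7%) low shear force birds 1 and 3 were the 2 highest birds, a share near the 15.1% of all genes. Of the 14, 4 were other motors (KIF1B, KIF3A, KIF5B and KIF13A) and 3 were cyclins or their phosphatases. These 14 had a median genomic span of 44.2 kb against 13.3 kb for the other 65 members. In the whole authors' table the genes with these birds highest had a median span of 30.7 kb against 12.7 kb for the rest, so that the members share this with genes at large. Several values given above shifted, toward 0 or away from it, when low birds were left out. Without low bird 2 the log2 fold change was 0.45 for MKI67, 0.33 for KIF23, 0.27 for CCND1, 0.24 for MCM3, 0.24 for SMC2 and -0.43 for CCNA2. Without low birds 1 and 3 it was 0.34 for CDCA8, 0.42 for MCM5, 0.12 for CCNB2, 0.27 for SMC2, 0.18 for PLK2, -0.096 for CCNA2 and -0.16 for SMC6. With low bird 3 alone left out it was -0.44 for KIF1B, -0.204 for KIF5B and -0.16 for SMC6, and with low bird 4 left out 0.64 for SMC2.

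The rest of the pathway was counted by lists that the naming rule does not take. Of 70 further cell cycle genes 44 were positive (62.9%), with a median of 0.085, and 0 were called by edgeR or DESeq2. An unadjusted edgeR p under 0.05 was found for 7 that were higher and 4 that were lower in high shear force birds. Together these were 15.7% of the list, near the 12.8% of all genes. Without low shear force birds 1 and 3, 33 of 70 were positive, with a median of -0.042. Of 31 replication enzymes 18 were positive and 13 negative, with a median of 0.032 that ran from -0.047 without low bird 1 to 0.062 without high bird 3. PCNA, the clamp of the replicative polymerases, stood at 29.0 ± 1.39 CPM in high and 28.8 ± 4.24 CPM in low shear force birds (SD, n = 4 each). RRM2, which makes DNA building blocks, had a log2 fold change of 0.41 ± 0.24, POLD2, a subunit of polymerase delta, 0.70 ± 0.24, RFC2 0.37 ± 0.18 and RFC5 0.54 ± 0.18 (SE), both of the last loading the clamp. Of their partners in the clamp loader, RFC3 and RFC1 were negative at -0.22 ± 0.25 and -0.15 ± 0.19, and RFC4 was positive at 0.13 ± 0.19 (SE). Polymerase subunits POLE2 and POLD3 had -0.36 ± 0.22 and -0.34 ± 0.23, the histone chaperone subunit CHAF1B -0.36 ± 0.27 and RPA1, which coats single-stranded DNA, -0.22 ± 0.15 (SE). RFC5 had 12.9, 14.3, 15.3 and 14.1 CPM in high and 8.76, 8.95, 9.39 and 11.8 CPM in low shear force birds, without overlap.

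Of 21 mitosis genes outside the rule 16 were positive (76.2%), with a median of 0.15, or 0.040 without low bird 2. SKA2, of a kinetochore complex, had 21.6, 22.9, 26.7 and 24.2 CPM in high shear force birds, against 15.4, 15.97, 16.5 and 19.3 CPM in low shear force birds, without overlap, and an adjusted p of 0.258. ESPL1, the protease separase, had a log2 fold change of 0.396 ± 0.16 (SE). STAG2, a cohesin subunit, ran the other way at 87.9 ± 13.9 CPM in high and 124 ± 19.7 CPM in low shear force birds (SD, n = 4 each). Of 18 regulators of G1, 10 were positive, with a median of 0.063 that turned to -0.025 without low bird 3. Without low birds 1 and 3, 6 of 18 were positive, with a median of -0.094. E2F1, a transcription factor that turns on replication genes, had 6.87, 10.01, 10.3 and 10.8 CPM in high and 2.77, 5.27, 3.99 and 8.07 CPM in low shear force birds. Low bird 4 lay above the lowest high bird, and the log2 fold change was 0.93 ± 0.31 (SE, adjusted p = 0.297). CDKN1B, the CDK inhibitor p27, and RBL2, a pocket protein of resting cells, were lower in high shear force birds on average, at -0.44 ± 0.17 and -0.51 ± 0.23 (SE). In CDKN1B low bird 3 lay inside the high group, and in RBL2 only low birds 1 and 3 lay above it.

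Markers of cells that can divide also differed between birds. In bulk RNA, fewer cells of a type and less RNA per cell cannot be told apart. All 12 fibroblast and all 12 endothelial markers measured were positive, and their median log2 fold changes were 0.54 and 0.61. The fibroblast median was 0.303 without low bird 2, and the endothelial median was 0.29 without low birds 1 and 3, with all 12 still positive in that fit for both lists. Summed fibroblast markers ran from 3851 to 5333 CPM in high and 2783 to 3761 CPM in low shear force birds, without overlap. On the mean of log2 CPM centred per gene the groups overlapped slightly, with high bird 4 at -0.002 and low bird 1 at 0.003. Summed endothelial markers ran from 349.8 to 670.5 CPM in high and 288.6 to 494 CPM in low shear force birds. Leukocyte markers were positive in 9 of 16 and negative in 7. Their sum, 948.8 to 2022 CPM in high and 983.5 to 1588 CPM in low shear force birds, was mostly CD74. CD74 alone had 581.3 to 1392 CPM in high and 633.8 to 1044 CPM in low shear force birds. The leukocyte median of 0.078 ran from -0.195 without high bird 3 to 0.24 without high bird 1. Satellite cell and myogenic markers were positive in 6 of 8, but in 3 of 8 with a median of -0.15 without low birds 1 and 3. Their sum, 1002 to 1351 CPM in high and 1069 to 1354 CPM in low shear force birds, was mostly DES, which fibres also express, at 769.4 to 1109 CPM in high and 817.4 to 1078 CPM in low shear force birds. MYF5, a marker of satellite cells and myoblasts, had 7.504, 9.315, 7.401 and 8.645 CPM in high shear force birds. In low shear force birds it had 5.22, 6.67, 3.60 and 7.23 CPM, at an edgeR adjusted p of 0.397. MYF5 alone of the 8 had no overlap, with high bird 3 just above low bird 4. NCAM1 and DES were negative, at log2 fold changes of -0.21 ± 0.15 and -0.17 ± 0.18 (SE). Erythroid markers were positive in 4 of 5, and the largest part of their sum in most birds was CA2. The globins HBB, HBAA and HBAD did not overlap between groups, with log2 fold changes of 1.88 ± 0.42, 1.94 ± 0.45 and 2.17 ± 0.53 (SE). DESeq2 called all 3 at adjusted p of 0.0013, 0.00138 and 0.00178, while edgeR gave 0.152, 0.163 and 0.186. Of the other markers in these lists DESeq2 called 1, the fibroblast gene POSTN. Its adjusted p was 0.036 by DESeq2 and 0.238 by edgeR. HBB had 84.5, 265.8, 75.1 and 72.1 CPM in high and 29.0, 43.4, 24.8 and 38.0 CPM in low shear force birds, so that high bird 2 stood above the rest. No marker measured was at 0 in all birds of a group. High shear force bird 1 was the lowest of its group in summed replication genes and mitotic motors. It was also the lowest of it in leukocyte and endothelial markers, but not in fibroblast markers. In summed satellite cell and myogenic markers, mostly DES, it was the highest of its group. On the mean of log2 CPM centred per gene it was the lowest of its group in that list, at -0.067. Low shear force bird 2 was the lowest of its group in replication genes, mitotic motors, leukocyte and fibroblast markers, and the second highest in endothelial markers. In satellite cell and myogenic markers it was the highest of its group by the sum. By the centred mean it lay just below low bird 4, at 0.094 against 0.1. The part of these markers in the values of the division genes was not tested.

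**Figure D5:**
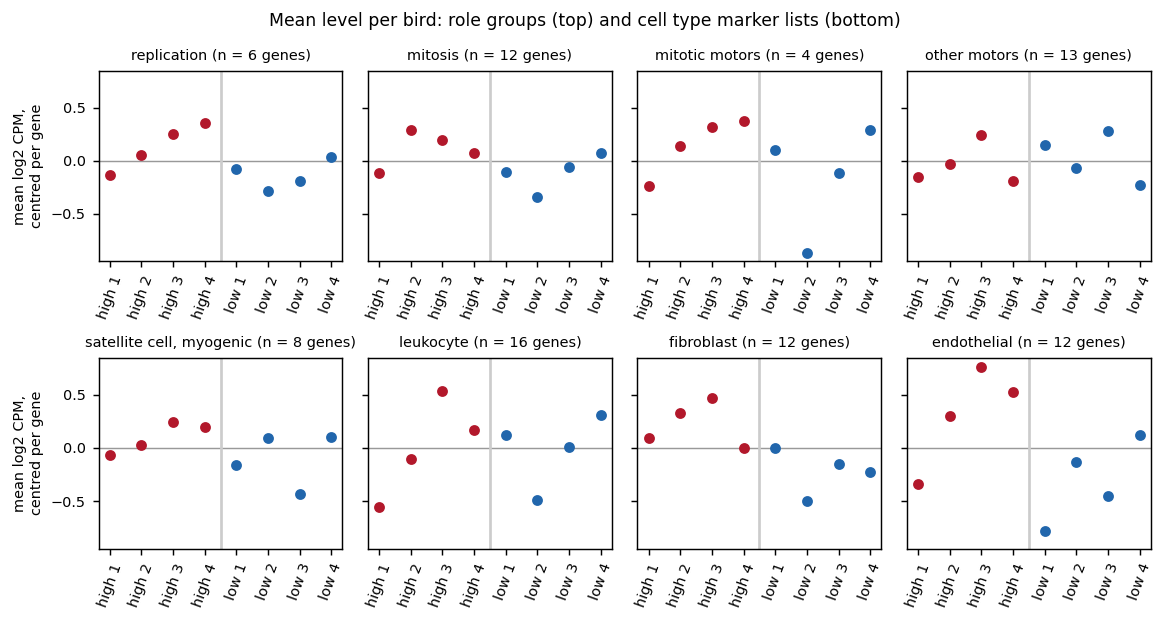
Each point is the mean over a list of log2 CPM centred per gene for 1 bird, with high shear force birds on the left of low shear force birds, role groups above and marker lists below. For mitotic motors low shear force bird 2 stands at -0.87 and high shear force bird 1 at -0.24, and in the leukocyte panel the same birds are the lowest, at -0.49 and -0.56.

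At the transcript level 81 transcripts with a member's symbol were measured, and 0 were called, against 0.0% of 10362 transcripts. An unadjusted p under 0.05 was found for 9 that were higher and 4 that were lower in high shear force birds, against 12.4% of all transcripts in either direction. Besides MCM6, KIF3B and CKAP5 had a pair of transcripts each. Most other members had a single transcript at nearly the CPM of the gene, so these transcript counts add little to the gene result. CKAP5-201 had 22.6, 25.4, 31.2 and 24.4 CPM in high shear force birds, against 44.6, 20.8, 46.9 and 24.6 CPM in low shear force birds, so that low birds 1 and 3 were high in this transcript. CKAP5-202 had 8.61, 7.95, 6.41 and 4.11 CPM in high and 7.84, 9.63, 6.96 and 10.4 CPM in low shear force birds, where they were not. The authors' deposited table called 0 of the 79 members at an edgeR FDR under 0.05, against 1.13% of its genes, and 0 at a DESeq2 adjusted p under 0.05, against 1.82%. The smallest values for a member in the authors' deposited table were 0.225 from edgeR and 0.123 from DESeq2.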

How the data were processed

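The authors deposited expected counts per gene and per transcript, 1 column per bird. Per the submitters' processing notes, which give no roles, the build was galGal4 and the tools were RSEM, Bowtie2, TopHat, FastQC and Cuffdiff, with DESeq2 and edgeR. Per the labels' protocols, Trizol served for extraction and an Illumina TruSeq kit for libraries, sequenced in 2 technical repetitions. The sources used here do not say how these were joined or whether counting used strand, so reads of overlapping genes cannot be told apart. The authors' deposited tables also hold log2 fold changes and p-values. Their sign is low over high (opposite to the counts' high over low in 96.7% of genes), so only their p-values are quoted.

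Counts were rounded, filtered with filterByExpr, scaled by TMM and tested with the quasi-likelihood test of edgeR 4.0.16 (R 4.3.3), high over low shear force, with Benjamini-Hochberg adjustment over 10136 genes. CPM use TMM library sizes. The SE of a log2 fold change was worked back from the test, as its absolute value over the square root of the F statistic. Alternatives used DESeq2 1.42.0, limma-voom 3.58.1, other scalings and filters, a replicate block, and birds left out. Members, roles and lists were chosen with earlier results of these data known. Named genes were the 12 members with the smallest p, a set list of cell cycle genes and the extremes of each role. Other members were named to account for all. Of that list, AURKA, BUB1, MCM7, PLK1, TYMS and CDKN1A are not analysed here. Close paralogs such as the KIF genes may share reads. Of 78 member symbols, 71 matched RefSeq (GRCg7b) by symbol and 4 by synonym. The 3 without a match were CDCA8, KIFC3 and MKI67IP, whose names rest on the authors' deposited table alone. In simulated counts for this comparison on 10136 genes, 61 of 100 genes changed by 1 and 99 of 100 changed by 2 (log2) were recovered, with 6 false among 166 calls. The simulated spread depended only on a gene's mean level and set no birds of a group apart. Recovery in the real counts may be lower.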

Additional observations from a re-analysis of the deposited data

Results flagged for a closer look

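In CDC2, low shear force bird 4 stood at 13.6 CPM, apart from the other low birds at 6.56 to 6.84 CPM. In CCNB2 the same bird stood at 17.1 CPM, against 11.6 to 12.5 CPM in the other low birds. In SMC6, low shear force bird 3 stood at 30.1 CPM, against 21.7 to 22.4 CPM. Each was a bird far from the rest of its group, 3 in 58 groups of 4 birds examined. Chance marks about 1 in 20 such groups.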

How the results depend on the processing

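Members called stayed at 0 under all alternatives run, as did called genes of the other cell cycle lists. Called transcripts of members also stayed at 0, but most of these transcripts carry nearly the counts of their gene. The median log2 fold change of the 79 members, 0.12, ran from 0.029 to 0.12 with 1 bird left out. Over all genes, calls numbered 123 by DESeq2, 7 without a filter on low counts, 5 at a threshold of 0.1, and from 0 to 7 with 1 bird left out. With the replicate number as a block 1 gene was called, and 0 members. Same-numbered birds correlated at 0.014, -0.0032, 0.205 and 0.32 in their deviations from the group means. These values were not set against those of differently numbered birds, so they cannot tell whether birds were paired. The main fit did not use the numbers to pair birds. In 493 refits of 29 named members, 5 changed sign, none with a call. KIF11 ran from -0.24 to 0.11 with 1 bird left out, at 0.080 when that was low bird 1. When low birds 1 and 3 were both left out, KIF11 stood at 0.18, KIF1B at 0.49 and KIF5B at 0.020. The cause was not tested. Member counts ran from 11 upwards per bird, which limits the precision of low genes such as NCAPG.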
